A study of Mus musculus with 8 samples.

Results

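Mouse bone marrow-derived macrophages given lipopolysaccharide (LPS) for 195 min, with interleukin-10 (IL-10) added for the last 30 min only, were compared with untreated macrophages. The comparison used 4 of the 8 libraries of the study, 2 of untreated cells and 2 of cells with LPS and late IL-10, over all 11415 genes of the deposited table. All groups were grown for 5 days in medium conditioned with M-CSF, the macrophage growth factor, from mice of the 129S6/SvEvTac strain with the genotype IL10-/-RAG2-/-, so the untreated cells too lacked intact Il10 and Rag2 genes. LPS was used at 1 ng/mL. The labels give 1 ng/mL for IL-10 in the group that received it throughout and do not restate the dose for the late addition. The 2 further groups, cells given LPS alone for 195 min and cells that had both agents from the start (IL-10 throughout), enter below where late IL-10 is set beside them. Total RNA was depleted of ribosomal RNA, sequenced with a directional kit, and summarised by the authors as a mature mRNA value and a pre-mRNA value (unspliced, recently made transcript) for each gene. Per the series' design, the cells came from 2 independent macrophage pools.

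LPS is sensed by Toll-like receptor 4, which signals through MyD88 and TRIF to NF-kB, MAP kinases and interferon regulatory factors, and so switches on cytokine, chemokine and interferon-response genes. IL-10 signals through its receptor, JAK1 and TYK2 to the transcription factor STAT3, and is the main cytokine known to restrain macrophage activation. Because pre-mRNA is short-lived and mRNA can persist for hours, the pre-mRNA value follows recent transcription more closely, while the mRNA value also carries what was made before.

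The deposited values are group means. The 2 libraries behind each mean were separated as described under processing, and the library with the larger size factor in each group is called A and the other B. The letters link neither libraries of different groups nor the mRNA and pre-mRNA measures. Summed over the genes of the table, the 4 compared libraries had between 21412968 and 53172133 reads for mRNA and between 8661271 and 31508394 for pre-mRNA. These sums are the total reads meant below and are not the sequencing depth. No gene had fewer than 11 reads in an LPS mRNA library, so the table gives no gene whose mRNA was lost altogether after LPS. All 10 macrophage markers fixed for the check of the cell type were in the table, with summed levels of 736270.0 to 812160.0 normalized mRNA reads in the untreated and 1023400.0 to 1164900.0 in the late IL-10 libraries. Of the markers of other cells, 7 of 12 for neutrophils, 5 of 10 for dendritic cells, 3 of 9 for T cells and 0 of 7 for B cells were listed. The neutrophil markers summed to 1893 to 2607 normalized mRNA reads untreated and 2465 to 3244 with late IL-10, and 5 of the 7 rose by mRNA. By pre-mRNA 3 of 6 neutrophil markers rose and 1 fell. Their pre-mRNA sums were 106.37 to 149.69 untreated and 140.4 to 145.88 with late IL-10. The dendritic cell markers summed to 1363 to 2911 untreated and 8944 to 16008 with late IL-10, and 4 of the 5 rose (Zbtb46, Xcr1, Itgax and Ccr7). Of 3 stromal markers Pdgfra and Pdgfrb rose, with the sum going from 236 to 310.3 untreated to 2372 to 2486 with late IL-10. Of the T cell markers Lck rose and Cd28 fell, with sums of 3341 to 5608 and 542 to 957, and the lymphoid markers Il7r and Rora fell, with sums of 16475 to 18265 and 4595 to 7741. The part of other cells in the results was not tested. In these bulk samples, fewer cells of a type and less RNA per cell cannot be told apart. Changes below are log2 differences of normalized reads + 1 (late IL-10 minus untreated) with limma's standard error (SE). The SE comes from a fit of all 8 libraries of a measure, with the spread moderated over genes. For differences between the measures all 16 columns were fitted. The words "SE from n = 2 libraries a group" give the size of the compared groups only. "Rose" and "fell" are used for a Benjamini-Hochberg adjusted p under 0.05.

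LPS with late IL-10 changed more than 1 in 3 of the genes tested by either measure. By mRNA, 2202 of 11415 genes rose (19.3%) and 1918 fell (16.8%), together 36.1%. By pre-mRNA, 2437 of 11131 rose (21.9%) and 2409 fell (21.6%), together 43.5%. LPS alone against untreated gave similar counts, 2193 rises and 1887 falls by mRNA and 2484 and 2418 by pre-mRNA. Among the largest changes with late IL-10, 380 listed genes rose at least 16-fold by mRNA and 31 fell as far, against 413 and 158 by pre-mRNA. Genes with fewer than 11 reads in an LPS mRNA library are not in the table, while genes at 0 in an untreated library are. Strong losses after LPS can therefore be missing, and the excess of large rises holds for the listed genes only. When libraries were scaled to their total reads in place of the median-based size factors, the median gene moved by -0.759 (mRNA) and -0.889 (pre-mRNA), and the split became 1231 rises and 4567 falls by mRNA and 1257 and 4564 by pre-mRNA. All directions below are therefore relative to the median gene. List counts below are to be set beside the shares of all genes that rose and fell, given above. For the gene lists, "total reads" followed by 2 counts gives the rises and falls under that scaling wherever it moved a count of at least 4 by more than 1.5 times or the share of rises among the calls by over 10 percentage points. Leaving out late IL-10 library A left 1190 rises and 726 falls by mRNA, and 1433 and 1342 by pre-mRNA. Without untreated library A the mRNA counts were 1467 and 949, and without untreated library B 1553 and 1075.

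The genes that rose most included cytokine, chemokine and effector enzyme genes. Il12b, which encodes the subunit shared by IL-12 and IL-23 (chr11:44400063-44414033, plus strand), had 1.32 and 2.48 normalized mRNA reads in the untreated libraries and 60456 and 21537 with late IL-10. Its mRNA thus went from very few reads to high counts in both libraries, a change of 13.63 ± 0.56 (SE from n = 2 libraries a group, adjusted p = 2.5e-05). Its pre-mRNA had 3 reads over both untreated libraries and 2072 and 1188 normalized reads with late IL-10, 1440 times the untreated reads (95% counting interval 492 to 6980). Il6, a fever-inducing and acute-phase cytokine (chr5:30013114-30019981, plus strand), had 1 untreated mRNA read and 15629.9 and 3729 normalized reads with late IL-10, 22600 times the untreated reads (95% counting interval 4060 to 893000). Il1a, an alarm cytokine of the IL-1 family, had 25.1 and 9.93 normalized mRNA reads in the untreated libraries and 191308 and 51255 with late IL-10 and rose by 12.52 ± 0.93. The naming rule required that the groups not overlap, so this was set in advance for these genes. Over all genes tested it held in the rising direction for 34.4% by mRNA and 37.4% by pre-mRNA.

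Chemokine and enzyme genes were also among the largest rises. Ccl5, which recruits T cells and monocytes, had 0 and 11.7 normalized pre-mRNA reads in the untreated libraries and 45514 and 28289 with late IL-10, a pre-mRNA change of 13.30 ± 1.03 (SE from n = 2 libraries a group, adjusted p = 0.00011), and its mRNA rose by 11.53 ± 0.48. Cxcl10, an interferon-inducible chemokine that binds CXCR3 (chr5:92346638-92348889, minus strand), had 45.6 and 44.7 normalized mRNA reads in the untreated libraries and 209539 and 93638 with late IL-10 and rose by 11.57 ± 0.53. Cxcl11, a further CXCR3 ligand that GENCODE lists as a polymorphic pseudogene, had no untreated mRNA reads and 10842 and 2583 with late IL-10, at least 5230-fold higher. Both genes overlap the protein-coding gene Art3 in the annotation. Nos2, the inducible nitric oxide synthase (chr11:78920787-78960254, plus strand), had 3 untreated mRNA reads and 17195 and 7613 normalized reads with late IL-10, 9630 times the untreated reads (95% counting interval 3290 to 46700), and its pre-mRNA rose by 12.46 ± 0.56. Irg1, which makes the antimicrobial metabolite itaconate, was already measurable before LPS, with 404 and 325 normalized mRNA reads in the untreated libraries and 658704 and 493944 with late IL-10, and rose by 10.62 ± 0.30. Ptgs2, the inducible cyclooxygenase of prostaglandin synthesis, rose by 10.66 ± 0.44 by mRNA and 10.70 ± 0.45 by pre-mRNA. Ch25h, which makes 25-hydroxycholesterol, rose by 11.92 ± 0.53 by mRNA. The table gives it no pre-mRNA reads in any library, so it was not tested by pre-mRNA. Its recent transcription cannot be read from that value. The chemokine gene Cxcl3 rose by 11.51 ± 0.47 and Shisa3, a Shisa family gene, by 10.93 ± 0.43 by mRNA.

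By pre-mRNA the list of largest rises also took in Gbp5, an interferon-inducible GTPase (chr3:142493978-142522344, plus strand), with 51.1 and 21.9 normalized pre-mRNA reads in the untreated libraries and 102739 and 54003 with late IL-10 and a change of 11.08 ± 0.67 (SE from n = 2 libraries a group, adjusted p = 4.3e-05). Saa3, an acute-phase serum amyloid gene, had 2.66 and 2.91 normalized pre-mRNA reads in the untreated libraries and 14901 and 21734 with late IL-10, a change of 12.21 ± 0.38. Fpr2, a receptor for formylated bacterial peptides, rose by 11.67 ± 0.20, Cd38, an NAD-consuming surface enzyme, by 10.29 ± 0.94 and Ifi205, an interferon-inducible gene, by 10.25 ± 0.85. Fpr2 overlaps Fpr3 in the annotation. Steap4, a metalloreductase, had 1 untreated pre-mRNA read and 1749 and 1479 normalized reads with late IL-10, 4180 times the untreated reads (95% counting interval 750 to 165000). The naming rule required that the late IL-10 libraries not overlap the untreated libraries, so their separation in these genes was set in advance.

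**Figure D1:**
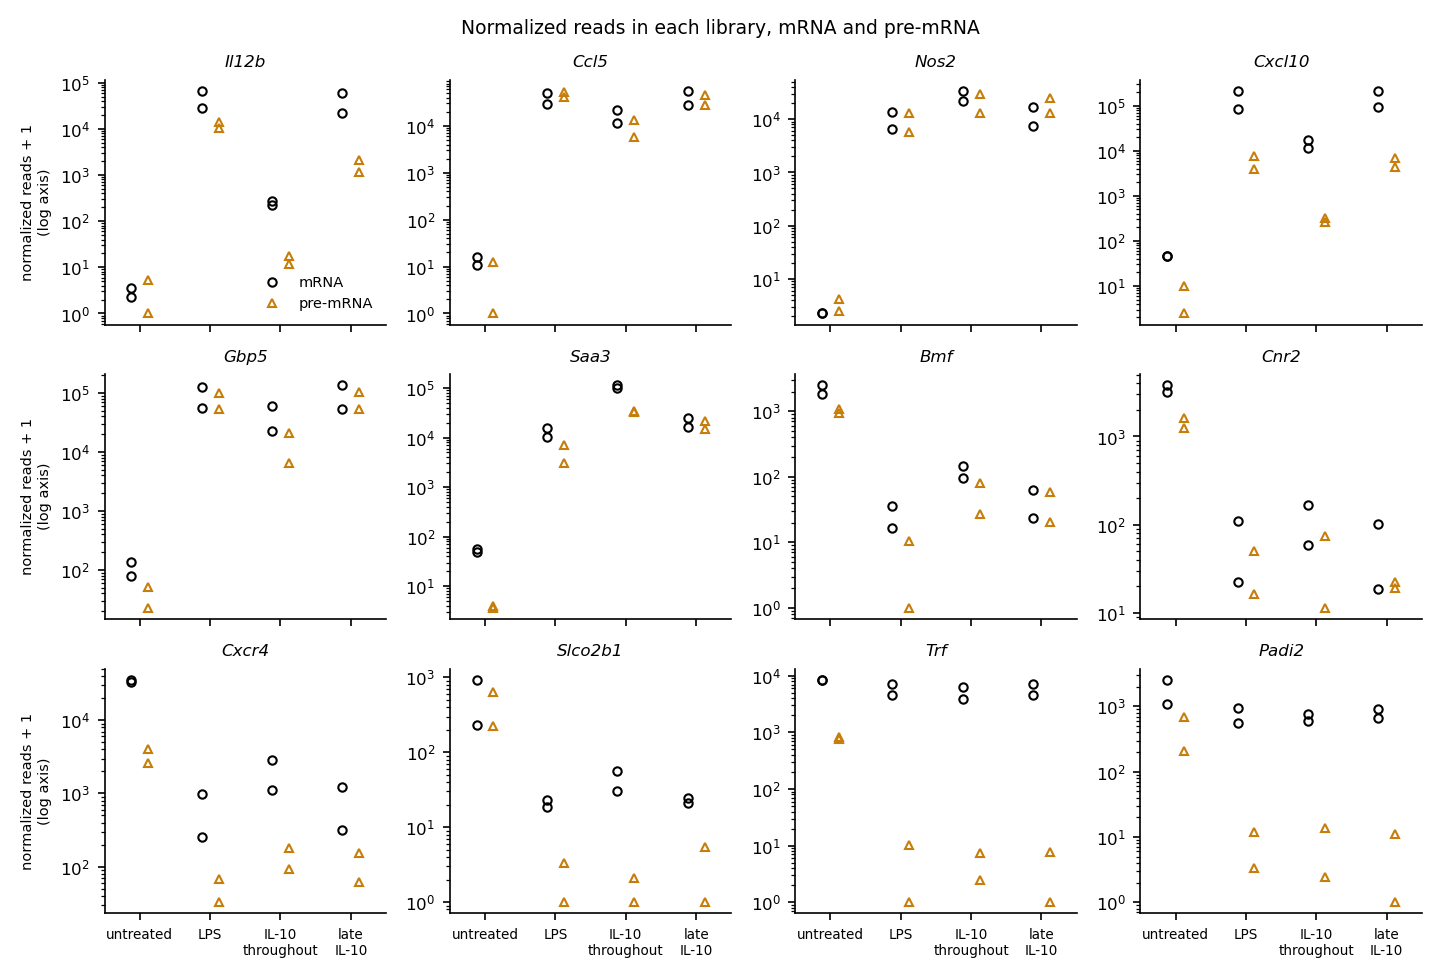
Normalized reads + 1 on a log axis in each library (2 points per group and measure) for 6 of the largest rises and 6 of the largest falls, mRNA as black circles and pre-mRNA as orange triangles. In the rises both untreated libraries sit far below both late IL-10 libraries. Genes were named only where the compared libraries did not overlap. Trf falls by pre-mRNA with mRNA close to its untreated level.

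The stretches just upstream of the start sites of 3 of these genes are shown because, of the largest rises, their windows hold the most matches to binding motifs of the pathways that LPS and IL-10 are known to use. They are the 250 bases before the start site in RefSeq's GRCm38.p6 annotation, 5′ to 3′, with matches in capitals.
Cxcl10: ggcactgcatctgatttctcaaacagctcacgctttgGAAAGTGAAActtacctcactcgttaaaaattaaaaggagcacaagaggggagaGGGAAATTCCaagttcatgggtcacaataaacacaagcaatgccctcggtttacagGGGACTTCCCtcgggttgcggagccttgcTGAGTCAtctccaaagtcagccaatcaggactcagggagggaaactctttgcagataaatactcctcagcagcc
Gbp5: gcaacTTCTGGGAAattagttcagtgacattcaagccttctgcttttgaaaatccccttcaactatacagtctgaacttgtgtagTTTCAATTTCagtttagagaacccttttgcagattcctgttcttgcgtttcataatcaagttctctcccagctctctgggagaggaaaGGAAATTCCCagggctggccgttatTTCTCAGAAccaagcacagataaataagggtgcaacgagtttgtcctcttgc
Steap4: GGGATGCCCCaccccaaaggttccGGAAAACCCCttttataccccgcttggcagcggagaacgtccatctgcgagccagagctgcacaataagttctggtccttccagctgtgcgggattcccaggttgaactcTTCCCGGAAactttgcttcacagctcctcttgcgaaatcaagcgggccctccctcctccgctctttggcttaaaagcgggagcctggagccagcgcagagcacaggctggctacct
The Cxcl10 stretch (chr5:92348890-92349139, minus strand) holds NF-kB site matches that begin 159 and 103 bases upstream of the start site, an interferon-stimulated response element (ISRE, searched as a pair of GAAA runs 2 bases apart) at 213 and an AP-1 match (TGANTCA) at 74. The Gbp5 stretch (chr3:142496684-142496933, plus strand) holds 1 NF-kB site match at 77 bases, 1 ISRE at 165 and STAT-type gamma-activated sites (GAS, TTCNNNGAA) at 245 and 52. The Steap4 stretch (chr5:7960222-7960471, plus strand) holds NF-kB site matches at 250 and 226 bases and a GAS at 116. Motifs were searched on both strands, in windows of 300 bases that also take in 50 bases after the start, and a stretch of bases can belong to more than 1 motif. Of the 19 genes named as largest rises by either measure, 15 had a window, and 5 of these held an NF-kB site, 4 an ISRE, 3 a GAS, 3 an AP-1 site and 1 a CRE (TGACGTCA). Among all 32544 windows of the table, 4.53% held an NF-kB site, 3.45% an ISRE, 8.33% a GAS, 7.79% an AP-1 site and 1.8% a CRE. Of the 21 largest falls, 15 had a window, of which 2 held an NF-kB site, 2 an AP-1 site and none a CRE, ISRE or GAS. The fall chosen by the same rule, Slco2b1, held only an AP-1 match, after its start site, and its window is not printed. A match describes the letters of the window and shows no binding.

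The genes that fell most included receptors and a pro-apoptotic gene. Cnr2, the cannabinoid receptor of immune cells (chr4:135895394-135920207, plus strand), had 3793 and 3164 normalized mRNA reads in the untreated libraries and 17.5 and 100.3 with late IL-10, a change of -6.32 ± 1.02 (SE from n = 2 libraries a group, adjusted p = 0.0042), and its pre-mRNA fell by 6.12 (SE 0.87). Bmf, a pro-apoptotic member of the BCL2 family (chr2:118528757-118549687, minus strand), had 2471 and 1813 normalized mRNA reads in the untreated libraries and 22.1 and 62.4 with late IL-10, a change of -5.79 ± 0.59. Cxcr4, the receptor for the chemokine CXCL12, had 35565 and 33004 normalized mRNA reads in the untreated libraries and 320.1 and 1232 with late IL-10, a change of -5.77 ± 0.84. The naming rule required both late IL-10 libraries to lie below both untreated libraries in these 3 genes. Over all genes tested this held for 34.3% by mRNA and 37.5% by pre-mRNA. Late IL-10 library A had the lower mRNA value of the pair in each of the 3 genes. Arrdc3, an arrestin-domain gene, fell by 5.09 (SE 0.47) by mRNA and Lpar6, a lysophosphatidic acid receptor, by 4.64 (SE 0.31). Zfp395, Fam78a, Cd300lb and Zfyve28 were also among the 12 largest mRNA falls, with changes of -5.35 to -4.65. Every gene named here among the largest rises kept its call with each library left out in turn. Of the largest falls, Fbxo31, a ubiquitin-ligase gene (-5.11 by mRNA), did not (adjusted p = 0.064 to 0.0851 without untreated library A, untreated library B or late IL-10 library A).

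Transport and enzyme genes were among the largest falls by pre-mRNA. Slco2b1, an organic anion transporter (chr7:99657804-99711340, minus strand), had 639 and 221 normalized pre-mRNA reads in the untreated libraries and 0 and 4.49 with late IL-10, a change of -7.33 ± 1.12 (SE from n = 2 libraries a group, adjusted p = 0.0018), and its mRNA changed by -4.33 ± 0.67. Trf, which encodes transferrin (chr9:103204001-103230444, minus strand), had 750.0 and 838 normalized pre-mRNA reads in the untreated libraries and 0 and 6.73 with late IL-10, a change of -8.16 ± 1.33, while its mRNA had 8485 and 8423 normalized reads untreated and 7298 and 4519.5 with late IL-10 (change -0.56, adjusted p = 0.238). Padi2, a protein-arginine deiminase, had 205 and 695 normalized pre-mRNA reads in the untreated libraries and 0 and 10.1 with late IL-10, a change of -6.83 ± 1.37, beside an mRNA change of -1.08 ± 0.45 (adjusted p = 0.104). Cd28, better known as a T cell costimulatory receptor, had 1061 and 1731 normalized pre-mRNA reads in the untreated libraries and 9.71 and 23.6 with late IL-10, a change of -6.39 ± 0.53. Tmem37, Tnfrsf26, Sbk1, Arhgap19, Tmem86a, Slc26a11 and Nt5dc2 completed the list, with pre-mRNA changes of -7.18 to -6.01. The pre-mRNA calls of Padi2 (adjusted p = 0.0511 without untreated library B) and Tmem86a (adjusted p = 0.0561 without untreated library B) were lost when the shallower untreated library was left out.

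Cytokine genes that passed all rose. Of 26 inflammatory cytokine genes tested by mRNA, 24 rose and none fell (median 6.90, against 0.00334 over all genes). By pre-mRNA 21 of 25 rose (median 6.13). Tnf, the prototype inflammatory cytokine (chr17:35199381-35202007, minus strand), had 482 and 423 normalized mRNA reads in the untreated libraries and 109950.0 and 98297 with late IL-10 and rose by 7.84 ± 0.19 (SE from n = 2 libraries a group, adjusted p = 5.6e-06), and its pre-mRNA rose by 6.47 ± 0.30. Il1b, the secreted IL-1, rose by 10.26 ± 0.59 by mRNA and 9.31 ± 0.46 by pre-mRNA. Il1rn, the IL-1 receptor antagonist, rose by 5.21 ± 0.74 and 7.80 ± 0.55. Il12a, the partner of Il12b in IL-12, had no untreated mRNA reads and 1085 and 344 normalized reads with late IL-10, at least 556-fold higher. Il10 itself, disrupted in all groups, still received reads, with an mRNA change of 4.09 ± 1.13 (adjusted p = 0.0944 to 0.143 without untreated library A, untreated library B or late IL-10 library A); where in the gene those reads fell cannot be read from the deposited values. The only members tested by mRNA that did not pass were Osm (0.35, adjusted p = 0.466) and Il18 (1.87, adjusted p = 0.0718). By pre-mRNA Csf3, Il23a, Lif and Osm did not pass. Library A of late IL-10 was the higher of the pair in 23 of the 26 cytokine genes by mRNA, by a median of 1.21. Without 1 library at a time, 21 to 25 rose by mRNA and 16 to 20 by pre-mRNA.

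Chemokine genes followed, with 19 of 21 rising by mRNA and none falling (median 8.73). By pre-mRNA 16 of 20 rose and 2 fell (median 6.89). Ccl4, an attractant of monocytes, rose by 9.89 ± 0.29 by mRNA and 8.96 ± 0.43 by pre-mRNA. The neutrophil attractants Cxcl1 and Cxcl2 rose by 9.39 ± 0.26 and 8.73 ± 0.35 by mRNA. The exceptions were chemokines known to be made without an inflammatory stimulus: by pre-mRNA Cxcl14 changed by -3.26 ± 0.89 and Ccl6 by -1.11 ± 0.36, both of which fell, though not with fewer libraries (adjusted p = 0.0757 to 0.114 without untreated library A, untreated library B or late IL-10 library A for Cxcl14 and adjusted p = 0.115 to 0.133 without any one of the compared libraries for Ccl6), while by mRNA their changes of -0.34 and -0.17 did not pass. Ccl17, a ligand of CCR4, rose by 5.70 ± 0.65 by mRNA, with a pre-mRNA change of 0.07 that did not pass (adjusted p = 0.934).

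Interferon-stimulated genes had the highest share of rises among the 29 lists by each measure, with 42 of 44 rising by mRNA (median 5.53) and 43 of 44 by pre-mRNA (median 5.78) and none falling. Gbp5, described above by pre-mRNA, had an mRNA change of 9.67 ± 0.66 (SE from n = 2 libraries a group, adjusted p = 0.00016). Ifit1, which binds foreign RNA caps, rose by 9.65 ± 0.91, the antiviral GTPase Mx1 by 9.35 ± 0.95 and Oasl1, an oligoadenylate synthetase-like gene, by 9.23 ± 0.70. Irf8, an interferon regulatory factor that macrophages express at rest, was the exception by both measures (-0.08 by mRNA, adjusted p = 0.915). All 44 members were higher in late IL-10 library A than in library B by each measure, by a median of 1.18 by mRNA and 0.901 by pre-mRNA. With each library left out in turn, 41 to 43 rose by mRNA and 42 to 43 by pre-mRNA.

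Genes of NF-kB and its own inhibitors rose nearly as uniformly, 27 of 29 by mRNA (median 3.38) and 28 of 29 by pre-mRNA (median 3.32), and none fell. Nfkbia, which encodes the inhibitor IkB-alpha, rose by 4.93 ± 0.19 by mRNA, Tnfaip3, the deubiquitinase A20, by 7.08 ± 0.33, and the adhesion receptor Icam1 by 6.57 ± 0.24 (SE from n = 2 libraries a group, adjusted p = 2.0e-05). Cyld, a deubiquitinase, did not pass by either measure (0.60 and 0.30). Of the Toll-like receptors, adaptors and kinases, 14 of 28 rose and 2 fell by mRNA (median 0.88, total reads 7 and 4), and 12 of 28 rose and 1 fell by pre-mRNA (median 1.10, total reads 6 and 5). Tlr2 rose by 4.16 ± 0.25 and the adaptor Myd88 by 2.77 ± 0.20 by mRNA, Tlr13, a receptor for bacterial ribosomal RNA, fell by 1.85 (SE 0.24), and Tlr4, the LPS receptor, changed by -0.23 (adjusted p = 0.768). Without 1 library at a time, 7 to 13 of these genes rose by mRNA, fewest without untreated library A or late IL-10 library A.

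In the list of IL-10 and STAT3 response genes and receptor components, 22 of 33 rose and 1 fell by mRNA (median 2.46, total reads 20 and 4), and 25 of 33 rose and 0 fell by pre-mRNA (median 3.03, total reads 23 and 3). Socs3, the STAT3-induced feedback inhibitor of cytokine receptors (chr11:117966079-117970047, minus strand), had 159 and 276 normalized mRNA reads in the untreated libraries and 181971 and 186534 with late IL-10, a change of 9.78 ± 0.28 (SE from n = 2 libraries a group, adjusted p = 6.6e-06). Cish, another member of that inhibitor family, rose by 9.55 ± 0.55 and Socs1 by 8.45 ± 0.34. Slamf1, a lymphocyte and macrophage adhesion receptor, had 3 untreated pre-mRNA reads and 3078 and 1975 normalized reads with late IL-10, 2220 times the untreated reads (95% counting interval 758 to 10700). The receptor chains themselves did not pass: Il10ra changed by 0.68 (adjusted p = 0.0894) and Il10rb by 0.02 by mRNA (adjusted p = 0.975). Il21r, a receptor of another cytokine, changed by -1.73 ± 0.37 by mRNA (adjusted p = 0.0584 to 0.0697 without untreated library A, untreated library B or late IL-10 library A). Of the MAP kinase phosphatases and RNA decay factors, 10 of 21 rose and 3 fell by mRNA (median 1.33, total reads 8 and 5), and 9 of 21 rose and 2 fell by pre-mRNA (median 0.89, total reads 8 and 6). Dusp2 rose by 7.74 ± 0.49, Dusp1 by 4.42 ± 0.39 and Zfp36, which encodes the mRNA-destabilising protein tristetraprolin, by 3.28 ± 0.20 by mRNA. Its relative Zfp36l2 fell by 3.21 (SE 0.37).

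Among early transcription factors, 17 of 32 rose and 3 fell by mRNA (median 1.57, total reads 13 and 6), and 12 of 22 rose and 3 fell by pre-mRNA (median 1.46, total reads 8 and 4). Ets2 rose by 4.07 ± 0.35, Maff by 4.49 ± 0.36 and Batf, an AP-1 family factor, by 3.95 ± 0.42 by mRNA. In the group of nitric oxide, arginine, itaconate and prostanoid genes, 11 of 20 rose and 2 fell by mRNA (median 1.88, total reads 8 and 5), and 10 of 20 rose and 4 fell by pre-mRNA (median 1.38). Beside Nos2, Irg1 and Ptgs2, Ptges, the prostaglandin E synthase, rose by 7.53 ± 0.47 by mRNA. Ptgs1, the constitutive cyclooxygenase, fell by 5.02 (SE 0.76) by pre-mRNA. Of the inflammasome and cell death effectors, 11 of 19 rose and 2 fell by mRNA (median 1.81), and 13 of 19 rose and 0 fell by pre-mRNA (median 2.05, total reads 9 and 2). Nlrp3, the sensor of the best-known inflammasome, rose by 4.63 ± 0.20 and the caspase gene Casp4 by 5.37 ± 0.67 by mRNA. Only 5 to 11 of that group rose by mRNA when 1 library at a time was left out. The BCL2 family combined the fall of Bmf with rises by mRNA of the A1 genes Bcl2a1a (at least 496-fold higher, with untreated libraries at 0) and Bcl2a1d (8.18 ± 0.48), near-identical copies whose reads cannot be told apart with certainty. Of the family, 6 of 16 rose and 1 fell by mRNA (median 0.72, total reads 4 and 3), and 9 of 16 rose and 1 fell by pre-mRNA (median 0.92, total reads 5 and 3), but the mRNA median was -0.03828 when scaled to total reads.

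MHC class I genes and costimulatory ligands that passed all rose, while MHC class II genes went in both directions by mRNA. The shares over all genes tested were 19.3% rising and 16.8% falling by mRNA, and 21.9% and 21.6% by pre-mRNA. For MHC class I and its peptide supply, 14 of 21 rose and 0 fell by mRNA (median 1.61), and 17 of 21 rose and 0 fell by pre-mRNA (median 3.03). H2-Q7, a non-classical class I gene with close paralogs, rose by 4.07 ± 0.42 by mRNA. Without 1 library at a time, 8 to 13 members rose by mRNA. For MHC class II, 1 of 10 rose and 1 fell by mRNA (median 1.09, total reads 0 and 3), and 6 of 10 rose and 0 fell by pre-mRNA (median 1.33, total reads 3 and 1). Ciita, the class II master regulator, was the member that rose by mRNA, at 1.45 ± 0.36 (adjusted p = 0.0525 to 0.0927 without untreated library A, late IL-10 library A or late IL-10 library B). March1, a ubiquitin ligase that removes class II from the surface, was the member that fell by mRNA and was among those that rose by pre-mRNA. Of the costimulatory and checkpoint ligands, 9 of 13 rose and 0 fell by mRNA (median 4.48), and 9 of 13 rose and 0 fell by pre-mRNA (median 3.90). Cd40 rose by 8.53 ± 0.37 and Cd274, which encodes PD-L1, by 4.48 ± 0.54 by mRNA. Cd80 and Cd86, the ligands of CD28, changed by 0.18 and 0.31 by mRNA and did not pass (adjusted p = 0.842 and 0.782).

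In the glycolysis and HIF-1 target list, 11 of 25 rose and 3 fell by mRNA (median 0.75, total reads 7 and 6), and 17 of 25 rose and 3 fell by pre-mRNA (median 1.75, total reads 11 and 3). The glucose transporters Slc2a1 and Slc2a6 rose by 2.90 ± 0.39 and 4.62 ± 0.26 by mRNA and hexokinase Hk2 by 2.74 ± 0.34. Scaled to total reads, the mRNA median of this list was -0.005423. Of the cholesterol synthesis and uptake genes, 14 of 26 rose and 1 fell by mRNA (median 1.57, total reads 13 and 5), and 16 of 26 rose and 2 fell by pre-mRNA (median 1.26, total reads 4 and 4), and by mRNA the isomerase gene Idi1 rose by 3.42 ± 0.51. The list of LXR, PPAR and lipid efflux genes went the other way, where 1 of 21 rose and 8 fell by mRNA (median -0.22), and 2 of 20 rose and 12 fell by pre-mRNA (median -1.84, total reads 0 and 13). Rxra, the shared partner of these nuclear receptors, fell by 2.64 (SE 0.33) by mRNA and 3.94 (SE 0.31) by pre-mRNA, Pparg by 2.35 (SE 0.31) and 3.28 (SE 0.27), and the exporter Abcg1 by 2.17 (SE 0.37) by mRNA. Ch25h was the only riser of the list by mRNA. The mRNA median of the list turned to 0.05326 without late IL-10 library B.

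Of the lysosomal genes, 3 of 32 rose and 15 fell by pre-mRNA (median -1.14, total reads 2 and 23), and 2 of 32 rose and 2 fell by mRNA (median -0.39, total reads 2 and 22). Lgmn, the protease legumain, fell by 2.94 (SE 0.19) by pre-mRNA, with an mRNA change of -0.67 that did not pass (adjusted p = 0.211). Ctsc, which activates serine proteases, rose by 2.42 ± 0.22 by mRNA and 4.18 ± 0.46 by pre-mRNA. The difference between the measures passed its own test in 2 of the 32 genes, Gpnmb (-3.09 ± 0.57, adjusted p = 0.0602 to 0.0813 without any single library except mRNA untreated library B, mRNA late IL-10 library B, pre-mRNA untreated library A and pre-mRNA late IL-10 library B) and Lgmn (-2.27 ± 0.44, adjusted p = 0.0537 to 0.0862 without any single library except mRNA late IL-10 library B). Over all genes tested, 1.58% had a lower pre-mRNA change by that test. For the other counts in this paragraph, the shares over all genes were 19.3% rising and 16.8% falling by mRNA, and 21.9% and 21.6% by pre-mRNA. Few respiratory chain genes passed, with 2 rises and 1 fall among 30 by mRNA and none and 2 by pre-mRNA. Scaled to total reads, 10 of them fell by mRNA and 13 by pre-mRNA, and without untreated library B 2 rose and none fell by pre-mRNA. Of the iron and metal genes, 7 of 19 rose and 3 fell by mRNA (median 0.63, total reads 7 and 5), and 8 of 19 rose and 4 fell by pre-mRNA (median 1.06), with an mRNA median of -0.1276 when scaled to total reads. Steap4 and the metallothioneins Mt1 and Mt2 rose by both measures, and Slc40a1, the iron exporter ferroportin, fell by 3.51 (SE 0.26) by mRNA and 4.04 (SE 0.61) by pre-mRNA.

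DNA repair genes that passed mostly fell: 1 of 35 rose and 10 fell by mRNA (median -0.89, total reads 0 and 22), and 2 of 35 rose and 18 fell by pre-mRNA (median -1.23). Xpc, a damage sensor of nucleotide excision repair, had 1373 and 1406 normalized mRNA reads in the untreated libraries and 82.1 and 183 with late IL-10, a change of -3.49 ± 0.38 (SE from n = 2 libraries a group, adjusted p = 0.00091). Without 1 library at a time, 5 to 9 fell by mRNA and 10 to 14 by pre-mRNA. Of the cell cycle genes, 5 of 34 rose and 4 fell by mRNA (median -0.38, total reads 3 and 15). By pre-mRNA 4 of 34 rose and 9 fell (median -0.82, total reads 3 and 14). Of all genes tested, 19.3% rose and 16.8% fell by mRNA, and 21.9% and 21.6% by pre-mRNA. Ccnd2, cyclin D2, rose by 8.30 ± 0.92 and Cdkn1a, the inhibitor p21, by 5.17 ± 0.43 by mRNA, whereas Gmnn, the replication licensing inhibitor geminin, fell by 4.14 (SE 0.52). By mRNA the falls also outnumbered the rises, 6 to 4, with only the compared libraries or without late IL-10 library B.

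Of 31 proteasome subunit genes, 18 rose by mRNA (median 0.80, total reads 2 and 1) and 18 by pre-mRNA (median 0.89, total reads 4 and 1) and none fell, with Psma6 at 2.17 ± 0.22 by mRNA. Scaled to total reads, the pre-mRNA median was -0.003422, and without 1 library at a time 4 to 12 rose by mRNA. Among chemokine and other G-protein-coupled receptors, 15 of 35 rose and 6 fell by mRNA (median 0.72, total reads 14 and 13), and 12 of 33 rose and 7 fell by pre-mRNA (median 0.81), but scaled to total reads the medians were -0.03964 and -0.08498. Adora2a, a receptor for adenosine, rose by 10.37 ± 0.57, Hcar2, a niacin and ketone body receptor, by 9.71 ± 0.16 and Fpr1 by 8.29 ± 0.54 by mRNA, against the falls of Cnr2, Cxcr4 and S1pr1 (-2.68 ± 0.35). Of the matrix enzymes and inhibitors, 11 of 21 rose and 1 fell by mRNA (median 1.50, total reads 11 and 6), and 10 of 21 rose and 4 fell by pre-mRNA (median 1.95). Mmp14, a membrane-bound metalloproteinase, rose by 7.51 ± 0.17 by mRNA, while Timp2, a metalloproteinase inhibitor, fell by 4.82 (SE 0.28) by pre-mRNA.

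Genes of the macrophage identity list that passed went in both directions, as did genes as a whole. Of all genes tested, 19.3% rose and 16.8% fell by mRNA, and 21.9% and 21.6% by pre-mRNA. These are the shares to set beside the list counts in this paragraph. Of the macrophage identity list, 6 of 33 rose and 4 fell by mRNA (median 0.05, total reads 5 and 12), and 10 of 30 rose and 5 fell by pre-mRNA (median 0.11, total reads 7 and 11). Marco, a scavenger receptor, rose by 6.72 ± 0.95 and Cd14, the LPS co-receptor, by 3.22 ± 0.30 by mRNA. Csf1r, the M-CSF receptor, fell by 1.97 (SE 0.29) by pre-mRNA with an mRNA change of -0.28 (adjusted p = 0.435). By mRNA the list had 4 rises and 4 falls without late IL-10 library A. Of the Fc, scavenger and complement genes, 11 of 30 rose and 2 fell by mRNA (median 0.46, total reads 9 and 7), and 14 of 30 rose and 9 fell by pre-mRNA (median 0.93, total reads 9 and 11), but scaled to total reads the mRNA median was -0.2961. Olr1, a receptor for oxidised LDL, rose by 9.18 ± 0.75 and complement factor Cfb by 5.75 ± 0.29 by mRNA. Of the chromatin modifiers, 8 of 36 rose and 6 fell by mRNA (median -0.05, total reads 5 and 19), and 8 of 36 rose and 9 fell by pre-mRNA (median 0.11, total reads 3 and 19), with Kdm6b, a histone demethylase, at 3.31 ± 0.38 by mRNA. For TGF-beta and BMP signalling, 5 of 26 rose and 3 fell by mRNA (median 0.17, total reads 2 and 9), and 5 of 26 rose and 7 fell by pre-mRNA (median 0.33, total reads 2 and 9), with Inhba, the activin A subunit, at 4.30 ± 0.57 and the SMAD corepressor gene Ski at -2.38 ± 0.43. Leaving out any one of the compared libraries ended the excess of falls of the chromatin list by pre-mRNA, with 7 rises against 5 to 7 falls, and the TGF-beta list by mRNA turned to 3 rises and 5 falls without late IL-10 library B.

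**Figure D2:**
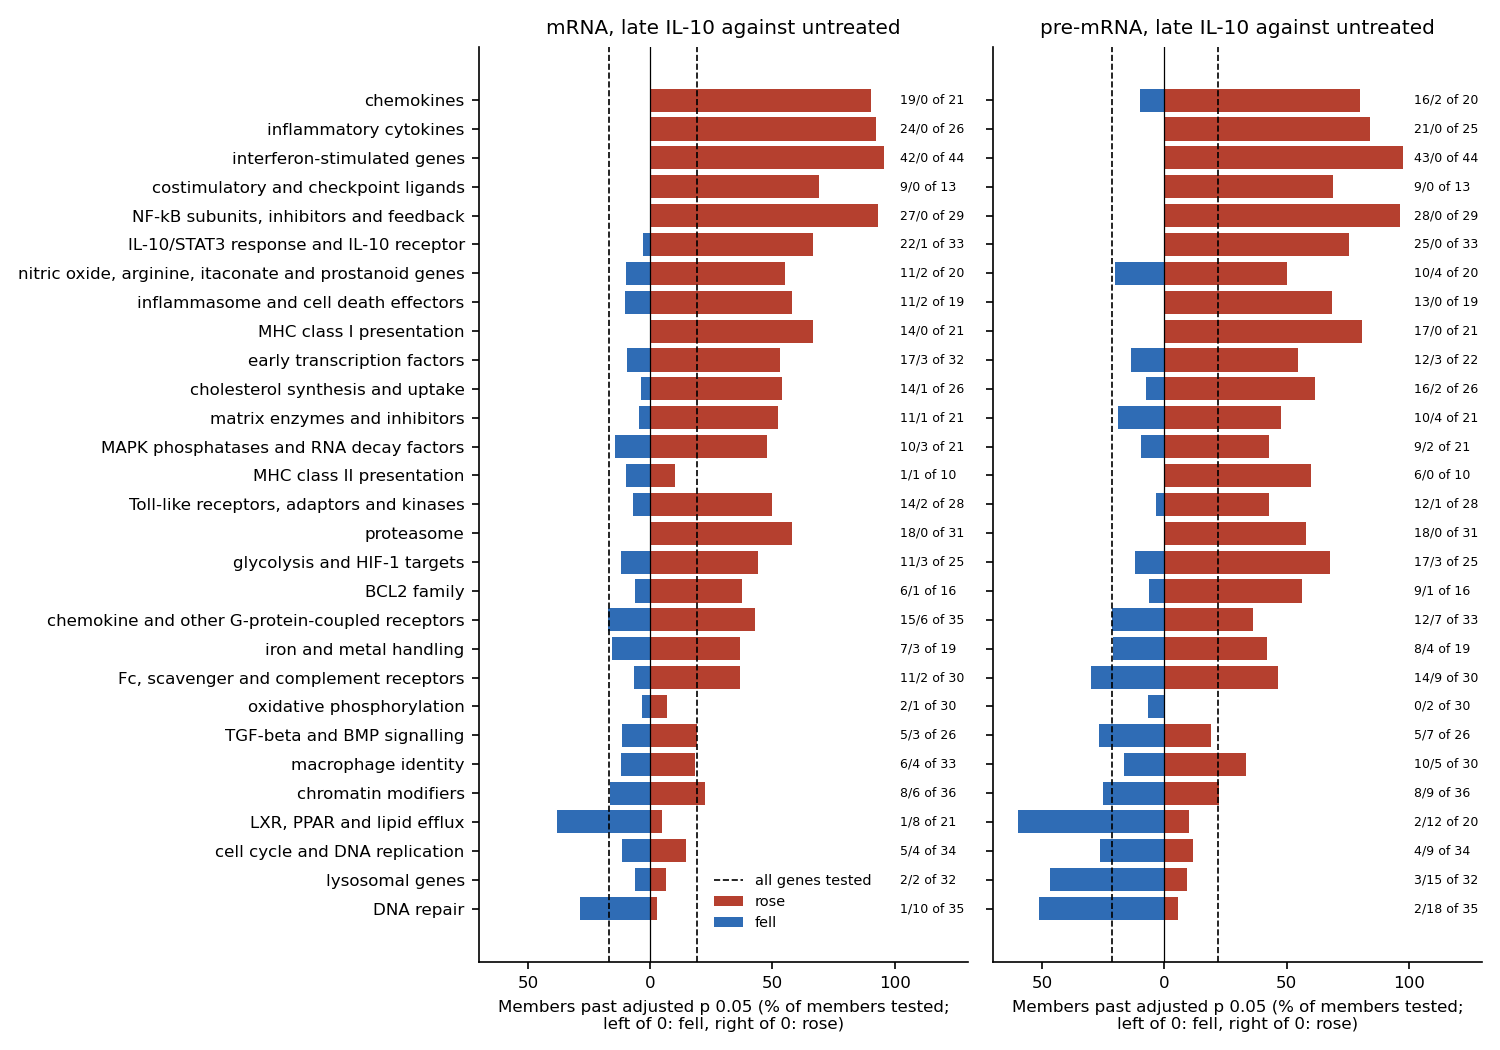
Share of the tested members of each of 29 gene lists that rose (red, right of 0) or fell (blue, left of 0) with late IL-10 against untreated cells, by mRNA (left) and pre-mRNA (right), with the counts beside each bar as rose/fell of tested and the shares of all genes tested as dashed lines. Interferon-stimulated genes reach 42 and 43 of 44, while DNA repair, lysosomal and lipid efflux genes extend to the left, further by pre-mRNA.

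The measures were then set against each other gene by gene. Of 11131 genes tested by both, 1628 rose by both, which is 75.8% of the genes that rose by mRNA and 66.8% of those that rose by pre-mRNA. A further 1375 fell by both, 73.1% of the mRNA falls and 57.1% of the pre-mRNA falls. By pre-mRNA alone 1030 genes fell and 802 rose, but passing by 1 measure only does not show a difference. The difference itself (pre-mRNA change minus mRNA change) passed in 83 genes with a higher pre-mRNA change (0.746%) and 176 with a lower one (1.58%), together 2.33%. Among the 176, 94 fell by pre-mRNA with no call by mRNA, 52 fell by both, 17 rose by mRNA with no call by pre-mRNA, 9 rose by both and 4 rose by mRNA and fell by pre-mRNA. Without 1 library at a time the counts ranged from 27 to 63 and from 74 to 232, and with only the compared libraries in the fit they were 39 and 119.

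Genes with a lower pre-mRNA change included genes with abundant mRNA in untreated cells. Trem2, a lipid-sensing receptor of tissue macrophages (chr17:48346401-48354147, plus strand), had 6343 and 6665 normalized pre-mRNA reads in the untreated libraries and 128 and 219.9 with late IL-10. By mRNA it had 13494 and 16902 normalized reads untreated and 10923 and 13019 with late IL-10, a difference between the measures of -4.93 ± 0.58 (SE from n = 2 libraries a group, adjusted p = 0.0018). Its mRNA libraries lay close together in the 2 groups, while its pre-mRNA libraries lay far apart. Alox5ap, the activating protein of leukotriene synthesis, had 2487 and 2882 normalized pre-mRNA reads in the untreated libraries and 69.8 and 110.0 with late IL-10, a difference of -4.64 ± 0.48, and Abcc3, an organic anion exporter, a difference of -4.88 ± 0.64. The differences of these 3 genes passed with each library left out. Sepp1, which encodes the selenium carrier selenoprotein P, differed by -4.83 ± 0.92 (adjusted p = 0.0548 to 0.0857 without any single library except mRNA untreated library A, mRNA late IL-10 library B, pre-mRNA untreated library B and pre-mRNA late IL-10 library B). Trf showed the lowest value of those named, -7.60 ± 1.46, but its call was lost in most of these fits (adjusted p = 0.0528 to 0.0862 without any single library except pre-mRNA late IL-10 library B). The same held for Nt5dc2 (-5.38 ± 1.23, adjusted p = 0.0909 to 0.15 without any single library except pre-mRNA late IL-10 library B), which overlaps Stab1 in the annotation.

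The same direction was also reached by genes with high mRNA and little pre-mRNA at the time of harvest. Lif, a cytokine of the IL-6 family (chr11:4257557-4272514, plus strand), had 3.97 and 8.69 normalized mRNA reads in the untreated libraries and 678 and 1099 with late IL-10, but by pre-mRNA 2.13 and 8.74 untreated and 4.42 and 20.2 with late IL-10, a difference of -6.01 ± 1.31 (SE from n = 2 libraries a group, adjusted p = 0.0365), which rested on all libraries together (adjusted p = 0.051 to 0.155 without any single library except pre-mRNA late IL-10 library B). In cells with LPS alone its pre-mRNA stood at 64.6 and 231. Mycl, a MYC family gene, had no untreated pre-mRNA reads and 42.4 and 7.85 with late IL-10, against 999 and 747 normalized mRNA reads. Plet1 and Serpina3g, both without untreated mRNA reads, completed the 10 lowest, and their differences of -5.38 (adjusted p = 0.0583 to 0.117 without any single library except mRNA late IL-10 library B and pre-mRNA untreated library B) and -4.71 (adjusted p = 0.0518 to 0.0862 without any single library except mRNA late IL-10 library B, pre-mRNA untreated library A and pre-mRNA late IL-10 library A) depend on the value added before taking logs. The cytokine subunit gene Il23a, with 1 untreated mRNA read and none by pre-mRNA, and the chemokine gene Ccl17, with a difference of -5.63 ± 0.85, belonged to the 17 genes that rose by mRNA with no call by pre-mRNA.

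Genes with a higher pre-mRNA change were led by Wfdc17, which encodes a small whey-acidic-protein-domain protein (chr11:83703991-83706268, plus strand). It had 3.20 and 4.37 normalized pre-mRNA reads in the untreated libraries and 3019 and 3109 with late IL-10. By mRNA it had 579 and 122 untreated and 4723 and 2212 with late IL-10, a difference of 5.73 ± 0.91 (SE from n = 2 libraries a group, adjusted p = 0.0069). Mt1, a metal-binding metallothionein, had 58.1 and 68.5 normalized pre-mRNA reads in the untreated libraries and 1951 and 2211 with late IL-10, a difference of 2.41 ± 0.38. Saa3 differed by 3.58 ± 0.52 and the complement protease gene C1ra by 3.46 ± 0.45. These 4 differences passed with each library left out, while those of Mt2, which had 2 untreated pre-mRNA reads (adjusted p = 0.0873 to 0.172 without any single library except mRNA untreated library B), the histone deacetylase gene Hdac9 (3.63 ± 0.83, adjusted p = 0.0534 to 0.187 without any single library except mRNA untreated library A) and Pla2g4a (3.13 ± 0.56, adjusted p = 0.0547 to 0.0692 without mRNA late IL-10 library B, pre-mRNA untreated library A or pre-mRNA late IL-10 library A), the phospholipase that releases arachidonic acid, did not. Pde4d, a cyclic AMP phosphodiesterase, reached the list through its mRNA, which went from 746 and 781 normalized reads untreated to 62.7 and 145 with late IL-10. Its pre-mRNA had 4191 and 4339 untreated and 4653 and 4854 with late IL-10. Syn1 is listed with a difference of 3.04 (adjusted p = 0.0924 to 0.142 without any single library except mRNA late IL-10 library A, pre-mRNA untreated library B and pre-mRNA late IL-10 library B), but it overlaps Timp1 in the annotation, and reads of the pair may not be separable in the pre-mRNA value. Of the IL-10 and STAT3 list, 4 of 33 were in this class (Bcl6, Hdac9, Il4ra and Stat3) and none in the opposite class.

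**Figure D3:**
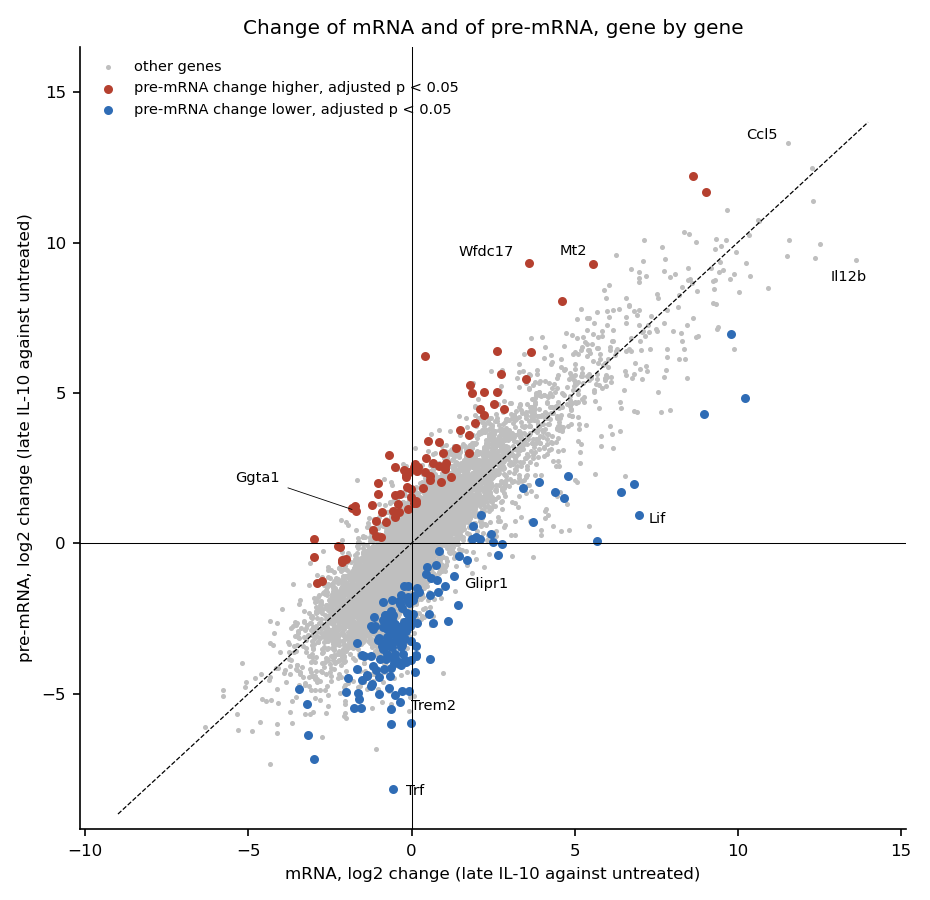
Log2 change with late IL-10 against untreated cells by mRNA (x axis) and by pre-mRNA (y axis), 1 point per gene for 11131 genes, with the 83 genes of higher (red) and 176 of lower (blue) pre-mRNA change marked and equal change as a dashed line. Most blue points lie below 0 on the y axis, and Trf and Lif lie far below the line.

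Only 11 genes moved in opposite directions by the 2 measures, and they were singled out after their values were seen. In 7 (0.0629% of genes) mRNA fell and pre-mRNA rose: Cyth4, Eif4b, Elovl6, Fcgr3, Ggta1, March1 and Rab31. Ggta1, which makes the alpha-gal sugar epitope, had 7438 and 6719 normalized mRNA reads in the untreated libraries and 2313 and 2039.8 with late IL-10, a change of -1.70 ± 0.20. Its pre-mRNA had 8162 and 9126 untreated and 20278 and 16464 with late IL-10, a change of 1.08 ± 0.26 (adjusted p = 0.0655 to 0.0938 without untreated library A or late IL-10 library A). With LPS alone the pre-mRNA stood at 1144 and 1070.2, so that late IL-10 was higher by 4.04 ± 0.26 (SE from n = 2 libraries a group, adjusted p = 0.0021). Fcgr3, an activating receptor for IgG, showed the same arrangement, with pre-mRNA at 1608 and 2178 untreated, 430.1 and 297 with LPS alone and 4575 and 3264 with late IL-10, and mRNA changing by -0.90 ± 0.28 from untreated (adjusted p = 0.0529 to 0.192 without any one of the compared libraries). Of the 7 genes, all but Eif4b, a translation initiation factor whose pre-mRNA rise of 0.70 (adjusted p = 0.097 to 0.164 without untreated library B, late IL-10 library A or late IL-10 library B) turned to -0.1857 with scaling to total reads, were also higher by pre-mRNA than with LPS alone. In the other 4 (0.0359%), Bicd2, Glipr1, Tmem206 and Tsc22d1, mRNA rose and pre-mRNA fell. Tsc22d1, a leucine zipper gene, had 3237 and 2667 normalized mRNA reads in the untreated libraries and 6396 and 9564 with late IL-10. By pre-mRNA it had 2683 and 2609.8 untreated and 556 and 723 with late IL-10, a difference between the measures of -3.47 ± 0.40. Each of the 11 genes lost a call by at least 1 measure when some single library was left out.

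Late IL-10 was then compared with LPS alone, the group that differs from it only in the last 30 min. The fit is unpaired, since the columns do not tie a library to a pool, and all spread between the libraries of a group counts as error. Over the 44 interferon-stimulated genes the median mRNA level (log2, library A then B) was 14.62 and 13.39 with late IL-10. It was 13.30 and 14.52 with LPS alone and 12.66 and 11.22 with IL-10 throughout. By mRNA no gene passed with limma-trend (0%) or with limma-voom. At an unadjusted p under 0.05, 92 genes were higher and 15 lower. The table holds only genes with at least 11 reads in each LPS mRNA library. Genes almost silent with LPS alone could therefore not appear in this comparison, whatever their level with late IL-10. The smallest p-values belonged to Dusp1 (4.30, adjusted p = 0.124), the transcriptional repressor gene Nfil3 (2.35, adjusted p = 0.131), Sema4c, Ppp1r3d, Fam217b and Tnip3, with differences of 1.84 to 3.07 for the last 4. By pre-mRNA 109 genes were higher with late IL-10 (0.979%) and 7 lower (0.0629%), together 1.04% of those tested. The count of higher genes ranged from 29 to 75 without 1 library at a time and was 32 with only the compared libraries in the fit. The lower count ranged from 0 to 3 without 1 library.

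Of the IL-10 and STAT3 list, 12 of 33 were among the 109, and none among the 7 (median difference 1.45, against -0.0482 over all genes). Steap4 had 0.533 and 0 normalized pre-mRNA reads untreated, 14.1 and 2.70 with LPS alone and 1749 and 1479 with late IL-10, a difference from LPS alone of 7.75 ± 0.75 (SE from n = 2 libraries a group, adjusted p = 0.004). Timp1, an inhibitor of metalloproteinases, stood at 12.8 and 17.5 untreated, 43.5 and 8.10 with LPS alone and 1024 and 626 after late IL-10. Syn1, which overlaps Timp1, is also among the 109, and pre-mRNA reads of the pair may not be separable. Il4ra, a receptor chain for IL-4, stood at 2412 and 2997 untreated, 5272 and 4083 with LPS alone and 39659.6 and 33596 with late IL-10, a difference from LPS alone of 2.98 ± 0.32. Nfil3 (3.33 ± 0.31), Etv3 (3.11 ± 0.41) and Sbno2 (1.82 ± 0.31), all known as IL-10-induced repressors, Bcl3 (2.59 ± 0.29), an atypical NF-kB inhibitor, and Stat3 itself (2.12 ± 0.32) were higher as well. Steap4, Nfil3 and Dusp1 passed with each library left out, while the others did not: adjusted p = 0.0542 to 0.0643 without late IL-10 library A or late IL-10 library B for Il4ra, adjusted p = 0.0569 to 0.116 without late IL-10 library A, late IL-10 library B or LPS library B for Etv3, adjusted p = 0.0636 to 0.291 without any one of the compared libraries for Sbno2, adjusted p = 0.0575 to 0.0761 without late IL-10 library A or late IL-10 library B for Bcl3, adjusted p = 0.0821 to 0.195 without late IL-10 library A, late IL-10 library B or LPS library B for Stat3 and adjusted p = 0.0768 to 0.116 without late IL-10 library A or late IL-10 library B for Timp1. Socs3, at 1410.1 and 2259 with LPS alone and 2992 and 4758 with late IL-10, did not pass (1.08, adjusted p = 0.79). The members of the list were chosen with their known response to IL-10 in view and with earlier results of these data known. The counts and medians of this list, here and in the other comparisons, are therefore descriptive and no independent evidence of a response.

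The 109 genes did not all stand above the untreated level. Against untreated cells, 39 rose by both measures and 31 rose by pre-mRNA with no call by mRNA. Another 15 had no call by either measure, 11 fell by mRNA with no call by pre-mRNA, 6 fell by mRNA and rose by pre-mRNA, 4 fell by pre-mRNA with no call by mRNA, and 3 fell by both. Cfp, which encodes the complement activator properdin, had pre-mRNA at 574 and 525 untreated, 125 and 115 with LPS alone and 1325 and 1025 with late IL-10, a difference from LPS alone of 3.27 ± 0.22 (SE from n = 2 libraries a group, adjusted p = 0.0021). Rab3il1, a Rab exchange factor, had 2272 and 2262 untreated, 64.6 and 70.2 with LPS alone and 1295 and 2132 with late IL-10, close to its untreated level, while its mRNA was still lower than untreated by 2.99. Of the 4 that fell by pre-mRNA with no call by mRNA, Lgmn had 6176 and 5918 untreated, 222 and 209 with LPS alone and 848 and 727 with late IL-10 (adjusted p = 0.0683 without late IL-10 library A for the difference from LPS alone). Pltp, a phospholipid transfer protein gene, had 4044 and 4441 untreated, 299.6 and 387 with LPS alone and 1294 and 1206 with late IL-10 (adjusted p = 0.0761 to 0.0922 without late IL-10 library A or late IL-10 library B). Sema4c, a semaphorin, Mt1 and Slc9a3r1, a scaffold protein gene, completed the 6 smallest p-values, with differences of 4.59, 4.82 and 2.87, and all 6 passed with each library left out. The 7 lower genes were Jag1, a Notch ligand (-1.84 ± 0.20, adjusted p = 0.0761 to 0.0843 without late IL-10 library A or late IL-10 library B), Lmo4, Cdc42ep4, Fgd3, Abhd17c, Tmem123 and 1190002N15Rik.

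**Figure D4:**
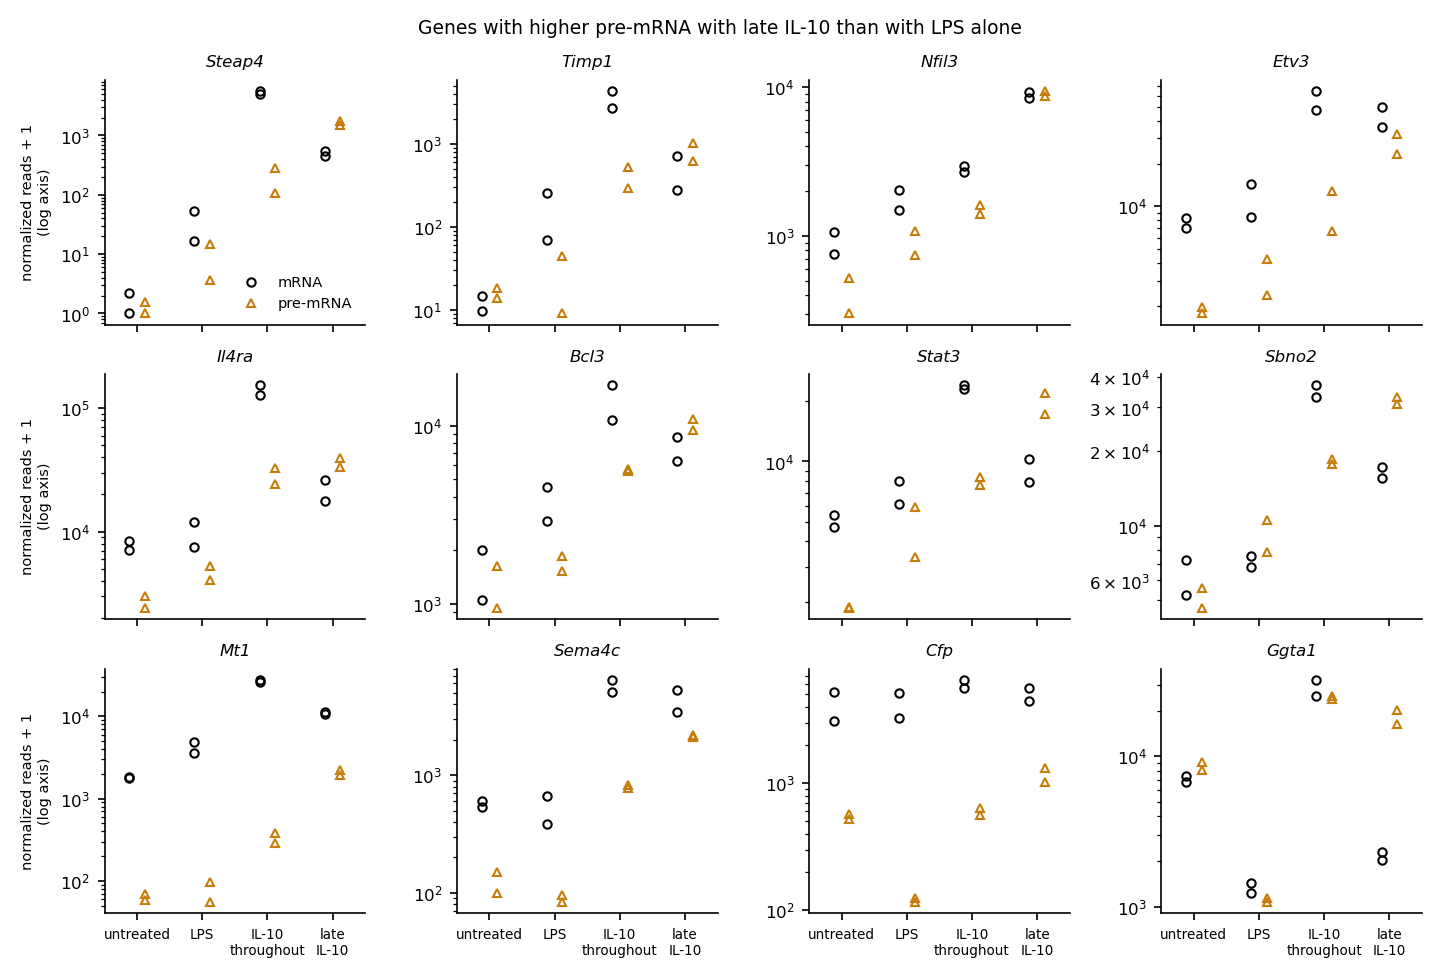
Normalized reads + 1 on a log axis in each library of all 4 groups for 12 genes whose pre-mRNA was higher with late IL-10 than with LPS alone, mRNA as black circles and pre-mRNA as orange triangles, 2 points per group and measure. The late IL-10 triangles lie above the LPS triangles in every panel, while the mRNA circles of Cfp and Ggta1 with late IL-10 stay nearer to LPS alone than the triangles do.

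Compared with IL-10 throughout, several cytokine and chemokine genes were higher with late IL-10, and members of the IL-10 and STAT3 list differed in both directions. By mRNA 65 genes were higher with late IL-10 (0.569%) and 59 lower (0.517%), a total of 1.09%. By pre-mRNA 245 were higher (2.2%) and 84 lower (0.755%), a total of 2.96%. Il12b stood at 60456 and 21537 normalized mRNA reads with late IL-10, against 269.9 and 226 where IL-10 was present throughout, a difference of 7.18 ± 0.56 (SE from n = 2 libraries a group, adjusted p = 0.0084), and its pre-mRNA differed by 6.78 ± 0.72. Without single libraries the difference did not pass (adjusted p = 0.0544 to 0.0634 without late IL-10 library A, IL-10 throughout library A or IL-10 throughout library B by mRNA and adjusted p = 0.0801 to 0.134 without late IL-10 library A, IL-10 throughout library A or IL-10 throughout library B by pre-mRNA). Csf2, which encodes GM-CSF (4.97 ± 0.73), Il12a (4.48 ± 0.72), Il23a (3.94 ± 0.49) and Cxcl10 (3.32 ± 0.53) were also higher by mRNA. In contrast Il4ra (-2.70 ± 0.31), Stat3 (-1.37 ± 0.22), Hdac9 (-4.21 ± 0.58) and Ggta1 (-3.72 ± 0.20) were lower by mRNA with late IL-10. Of the 33 genes of the IL-10 and STAT3 list, 4 were lower (Bcl6, Hdac9, Il4ra and Stat3) and 2 higher (Nfil3 and Socs1) by mRNA, with a median of -0.52, and by pre-mRNA 3 were higher (Arid5a, Cish and Nfil3) and none lower, with a median of 0.82. Of Csf2, Il12a, Il23a, Cxcl10, Il4ra, Stat3, Hdac9 and Ggta1, Ggta1 alone passed with each library left out, while the adjusted p of the other 7 without 1 library ranged from 0.0736 (Csf2) to 0.239 (Il12a). Of 44 interferon-stimulated genes, 16 were higher and none lower by pre-mRNA, and none passed by mRNA in either direction. These counts depended on single libraries: without 1 library at a time 0 to 5 genes were higher by mRNA and 1 to 22 by pre-mRNA, and with only the compared libraries in the fit none and 15.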

How the data were processed

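RNA of 8 macrophage libraries, 2 in each of 4 groups, was measured as mRNA and pre-mRNA. The deposited values are a normalized read signal, given as group means that the authors made with DESeq after trimming with Trim Galore and alignment to mm10, per the submitters' processing notes. Not given in the sources used here: the aligner, the counter, whether strand was used in counting, and how pre-mRNA reads were assigned. Each deposited mean was resolved into 2 whole read counts and 2 size factors, which succeeded for 100.0% of the values. This gives the reads of each library summed over the listed genes, not its sequencing depth. The columns carry no replicate number, and which pool a library came from was not used. Replicates are independent pools per the series' design.

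Log2(normalized reads + 1) was fitted with limma-trend (limma 3.58.1, R 4.3.3) over genes with a mean of at least 1 across the 8 libraries, with all groups in one fit and Benjamini-Hochberg adjustment over all genes tested. The difference between the measures was an interaction in a joint fit of 16 columns, which treats the mRNA and pre-mRNA of a library as independent. The scripts were tested on simulated data. Counts whose untreated group had 3 reads or fewer are given as a ratio with an exact 95% interval or, at 0 reads, as a bound at 3 reads over the group. These cover counting error only.

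Genes named were the 12 largest rises and falls by each measure (mean of at least 20, libraries not overlapping, predicted genes skipped), the 10 largest differences between measures in each direction, up to 3 members per list with the smallest adjusted p, the 6 smallest adjusted p against LPS alone, and list members. The genes that moved in opposite directions, the 7 that were lower than with LPS alone, and the genes given as examples of classes were chosen after their values were seen. The comparison, its members and all lists were chosen with earlier results of these data known. Positions and overlaps are from GENCODE M21 (GRCm38). Of 759 list genes, 732 were in the table. A few genes of the lists are not reported here by name.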

Additional observations from a re-analysis of the deposited data

How the results depend on the processing

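Alternatives were the pseudocount, the filter on low values, scaling to total reads, limma-voom on the recovered reads, a fit with only the compared libraries, and leaving out each library in turn, where the lone library of a group is assumed to vary like the other groups. Of 359 changes and differences of genes that the naming rule selected or the text gives, 241 kept their direction and their side of the threshold under every alternative. Against untreated cells, scaling to total reads gave 1231 genes higher and 4567 lower by mRNA, and 1257 and 4564 by pre-mRNA. Leaving out 1 library gave 1190 to 1860 higher and 726 to 1508 lower by mRNA, and 1433 to 2040 and 1342 to 2068 by pre-mRNA. Against LPS alone, scaling to total reads gave 3 genes higher by mRNA, and 0 passed in either direction whichever library was left out. By pre-mRNA, 59 were higher with no filter and 32 with only the compared libraries, while 11 were lower with a pseudocount of 8, 12 with limma-voom and 0 with only the compared libraries, and leaving out 1 library gave 29 to 75 higher and 0 to 3 lower. Against IL-10 throughout, only the compared libraries gave 0 higher and 0 lower by mRNA and 15 and 4 by pre-mRNA, no filter gave 19 and 7 by pre-mRNA, and scaling to total reads gave 89 lower by mRNA and 141 lower by pre-mRNA. Leaving out 1 library gave 0 to 5 higher and 1 to 3 lower by mRNA, and 1 to 22 and 0 to 11 by pre-mRNA. For the difference between measures, only the compared libraries gave 39 higher, scaling to total reads gave 117 lower, and leaving out 1 library gave 27 to 63 higher and 74 to 232 lower. The cause was not tested.

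Of the results that passed, 2 turned in direction, with scaling to total reads: Atp5b by mRNA (-0.1656) and Eif4b by pre-mRNA (-0.1857). Values that did not pass also turned. With scaling to total reads these were, by mRNA, Cd80 (-0.5716), Cd86 (-0.4499), Cyld (-0.1587), Il10ra (-0.08394), Il10rb (-0.7441) and Osm (-0.4094), and by pre-mRNA Ccl17 (-0.6973), Cyld (-0.5958) and Uqcrfs1 (-0.01406). Leaving out 1 library, the values that turned ranged, by mRNA, over -0.7419 to 0.3952 for Ccl6, -0.5386 to 0.9078 for Cd80, -0.6177 to 1.236 for Cd86, -1.357 to 0.6762 for Cxcl14, -0.3385 to 0.3694 for Il10rb, -0.425 to 0.2701 for Irf8 and -0.751 to 0.2935 for Tlr4. By pre-mRNA they ranged over -0.1271 to 0.2607 for Ccl17, -0.1758 to 0.7658 for Cyld and -1.27 to 0.2975 for Osm.

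No paired analysis was possible because the columns carry no replicate number. With 2 libraries a group, the spread of each gene is estimated mostly from other genes and groups. The shallowest library, untreated pre-mRNA library B with 8661271 reads over the listed genes, limits falls of low genes.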
